A study of Mus musculus with 2 samples.

Results

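The Ikaros family of transcription factors (Ikzf1, Ikzf2, Ikzf3 and Ikzf4) and Foxp3 were followed through the leukocytes of pancreatic islets of the NOD mouse, whose islets are attacked by its own T cells. The 5 genes were taken by symbol from the 32285 genes of the deposited matrices, and all 5 were found in both libraries. They were picked with results of these libraries in view, because Ikzf2 was higher in CD8 T cells of the library labelled NOD.Cxcl16-/-. Foxp3 was added to tell regulatory T cells apart from CD8 T cells. The 2 groups were WT NOD females and NOD females labelled as lacking Cxcl16, a chemokine gene, with 1 library each and both at 12 weeks of age. Islets were picked by hand, dispersed without enzymes and sorted for live CD45+CD31- cells, and RNA was counted as unique molecular identifiers (UMIs) with the 10x Genomics 3' v3.1 chemistry. The labels do not say how many animals went into a library.

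Ikaros-family proteins are zinc-finger factors that bind DNA through fingers near one end, pair with each other through fingers at the other end, and recruit the NuRD co-repressor complex. Ikzf1 encodes Ikaros and Ikzf3 encodes Aiolos, which act across lymphoid development. Ikzf2 encodes Helios and Ikzf4 encodes Eos, both best known from regulatory T cells (Tregs), whose identity depends on the forkhead factor Foxp3. Helios is also found in activated T cells, in some innate-like lymphocytes and in a class of regulatory CD8 T cells that carry Ly49 receptors.

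The second zinc finger is shown for each Ikaros-family member because it belongs to the DNA-binding part that the members share. The coding sequences are read 5' to 3' on the coding strand from GENCODE M21 transcripts for the mouse build GRCm38, with the codons of the paired cysteines and histidines that hold the zinc in capitals. Ikzf1 lies at chr11:11754024-11754086 on the plus strand, in exon 6 of the transcript used. Ikzf2 lies at chr1:69570581-69570643, Ikzf3 at chr11:98488940-98489002 and Ikzf4 at chr10:128640229-128640291, all on the minus strand and in exon 5.
Ikzf1: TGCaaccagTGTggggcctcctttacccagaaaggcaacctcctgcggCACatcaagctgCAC
Ikzf2: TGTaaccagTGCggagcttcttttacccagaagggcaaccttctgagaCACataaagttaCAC
Ikzf3: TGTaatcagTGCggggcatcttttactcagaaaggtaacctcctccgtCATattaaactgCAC
Ikzf4: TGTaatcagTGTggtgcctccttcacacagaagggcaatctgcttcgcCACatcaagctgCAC

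All 4 fingers code for the same 21 residues, while 76.2% to 84.1% of the 63 bases were identical between pairs of members. Near-identical transcripts can share reads, so the longest run of identical bases between transcripts was measured for each pair of members. It was 32 bases, for Ikzf2 and Ikzf4, and 12 to 26 bases for the other pairs. The genes themselves span chr11:11685003-11772926 (Ikzf1, plus strand), chr1:69531214-69687245 (Ikzf2, minus strand), chr11:98464902-98546031 (Ikzf3, minus strand), chr10:128630843-128645991 (Ikzf4, minus strand) and chrX:7573644-7595245 (Foxp3, plus strand). The annotation places the non-coding genes Gm29112 and Gm28112 inside introns of Ikzf2 on its own strand, and Flicr over Foxp3 on its strand, so UMIs of these genes may have been split between the overlapping names.

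Depth was 93553185 UMIs over 13859 barcodes in the WT NOD library and 98681133 UMIs over 10554 barcodes in the one labelled NOD.Cxcl16-/-. After filters on detected genes, mitochondrial UMIs and doublets, 10717 and 9323 cells were kept, at medians of 3868 and 4901 UMIs. The libraries shared 45 barcodes. Cxcl16, the gene named in the second label, was counted at 103 CPM (counts per 1000000 UMIs) over all barcodes of the WT NOD library and at 102 CPM in the other. It stood at 54.3 and 93.5 CPM over the kept cells. In myeloid-like cells it stood at 667 and 435 CPM. These 3' counts were matched to no deleted part of the gene and do not show whether a working product was made, so the second library is named by its label and no difference is tied to the genotype. With 1 library per group no difference has a replicate check, no test was possible, and the 95% intervals given cover counting error only.

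Cells were sorted into 10 marker gates that used none of the 5 genes, and the gates held 54.8% and 60.0% of the kept cells. Each gate's UMIs were summed per library and scaled to CPM of the gate. The CD8 T-like gate (Cd3 and Cd8 UMIs, no Cd4 UMI) held 2439 WT NOD cells and 1518 cells of the other library. The Treg-like gate (Cd4 and Il2ra UMIs with a UMI of Ctla4, Tnfrsf18 or Tnfrsf4) held 127 and 162 cells, and the remaining CD4 T-like cells numbered 1259 and 1324. In the Treg-like gate 14 of 16 T-cell and Treg markers were each found in 20% of the cells or more in both libraries. The Cd3 genes and the Cd4, Il2ra, Ctla4, Tnfrsf18 and Tnfrsf4 markers made the gate, so this count was partly fixed in advance. Gpr83 (5.51% and 4.94%) and Lrrc32 (9.45% and 9.26%) fell below that share. The 10 Treg markers summed to 3234 and 3027 CPM there and to 2112 and 2135 CPM in other CD4 T-like cells. A gate on Cd3 and Trdc, the delta-chain constant gene, is called by its gate, because its NK markers summed to 1738 and 2049 CPM and exceeded its gamma-delta markers at 1265 and 1672 CPM. The NK-like and plasmacytoid DC-like gates kept their names but were mixed with myeloid markers. These summed to 5503 and 6302 CPM in NK-like cells and to 3548 and 11125 CPM in plasmacytoid DC-like cells. In NK-like cells they exceeded the NK markers, at 3393 and 2507 CPM. The name NK-like therefore stands for the gate and does not settle the cell type. In each pair of values below, the WT NOD library comes first.

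Ikzf1, which encodes Ikaros, was spread almost evenly over lymphocytes. It stood at 191 and 180 CPM in CD8 T-like cells, 186 and 183 CPM in other CD4 T-like cells, 191 and 177 CPM in Trdc-gated cells and 165 and 138 CPM in B-like cells. NK-like cells had 179 and 108 CPM from 71 and 76 UMIs, a log2 ratio of -0.72 (-1.20 to -0.23). In that gate 14.9% of 5987 genes tested were lower by 1.5-fold or more. Plasma cell-like cells had the lowest level, at 27.0 and 37.5 CPM, and myeloid-like cells came next at 84.0 and 74.9 CPM. In the WT NOD library the intervals of neighbours in the order overlapped from the ILC2-like cells, highest at 316 CPM from 24 UMIs, down to the B-like cells. Treg-like cells, at 135 and 119 CPM, were below the B-like cells in both libraries, although in the library labelled NOD.Cxcl16-/- these intervals overlapped.

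Ikzf2, which encodes Helios, had a different order, led by Treg-like cells at 773 CPM (726 to 822) and 682 CPM (649 to 717). Other CD4 T-like cells followed at 276 and 361 CPM and Trdc-gated cells at 240 and 251 CPM. CD8 T-like cells stood at 91.0 CPM (86.5 to 95.7) and 162 CPM (155 to 169). NK-like cells, gated on Ncr1 or Klre1, had 75.5 and 38.5 CPM from 30 and 27 UMIs, and ILC2-like cells 158 and 93.9 CPM from 12 and 15 UMIs. The NK-like gate is mixed, since myeloid markers summed to 5503 and 6302 CPM there and NK markers to 3393 and 2507 CPM. The part of myeloid cells in its values was not tested. In the WT NOD library the interval of NK-like cells overlapped that of CD8 T-like cells, and in the other it did not. B-like cells were near 0, at 2.91 and 1.76 CPM from 23 and 22 UMIs, and plasma cell-like cells held 0 and 2 UMIs. Ikzf2 in CD8 T-like cells was thus 31.3-fold (20.8 to 49.5) and 92.0-fold (60.6 to 147) the level of B-like cells. Treg-like cells were 8.49-fold above CD8 T-like cells in the WT NOD library and 4.205-fold above them in the other.

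Ikzf3, which encodes Aiolos, was highest in ILC2-like cells, at 671 and 651 CPM from 51 and 104 UMIs. B-like cells had 304 and 274 CPM and Trdc-gated cells 269 and 350 CPM, and these were the next in both libraries, in opposite order and with overlapping intervals in the WT NOD library. CD8 T-like cells (225 and 251 CPM), Treg-like cells (219 and 205 CPM) and other CD4 T-like cells (162 and 192 CPM) lay below. Plasmacytoid DC-like and myeloid-like cells were lowest, at 24.5 and 10.9 CPM and at 1.79 and 8.42 CPM, the last from 2 and 31 UMIs. Ikzf3 thus had B-like cells near the top of its order, whereas Ikzf2 had them near the bottom.

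Ikzf4, which encodes Eos, and Foxp3 were largely T-cell genes, with Treg-like and then other CD4 T-like cells the highest for both. Ikzf4 stood at 59.2 and 59.3 CPM in Treg-like cells, 22.8 and 25.6 CPM in other CD4 T-like cells and 11.9 and 15.2 CPM in CD8 T-like cells. Foxp3 stood at 83.4 CPM (68.6 to 101) and 90.1 CPM (78.1 to 103) in Treg-like cells and at 18.8 and 32.1 CPM in other CD4 T-like cells. None of these neighbouring intervals overlapped within a library. Below these gates the orders parted. Ikzf4 was lower in Trdc-gated than in CD8 T-like cells, at 4.39 and 5.08 CPM. Foxp3 stood at 1.76 and 5.08 CPM in Trdc-gated cells, from 2 and 5 UMIs, and at 1.75 and 4.07 CPM in CD8 T-like cells, with overlapping intervals. Neither gene had a UMI in NK-like, ILC2-like, plasma cell-like or plasmacytoid DC-like cells, where a floor of 3 UMIs corresponds to 7.55 and 4.28 CPM in NK-like and to 39.5 and 18.8 CPM in ILC2-like cells. The Treg-like gate, made without Foxp3, was thus the highest for Foxp3 in both libraries. More cells with a Foxp3 UMI nevertheless lay in the other CD4 T-like gate, 80 and 138 against 48 and 79 in the Treg-like gate. The other CD4 T-like gate can therefore still hold Tregs, and the Treg-like gate can hold CD4 T cells that are not Tregs.

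**Figure D1:**
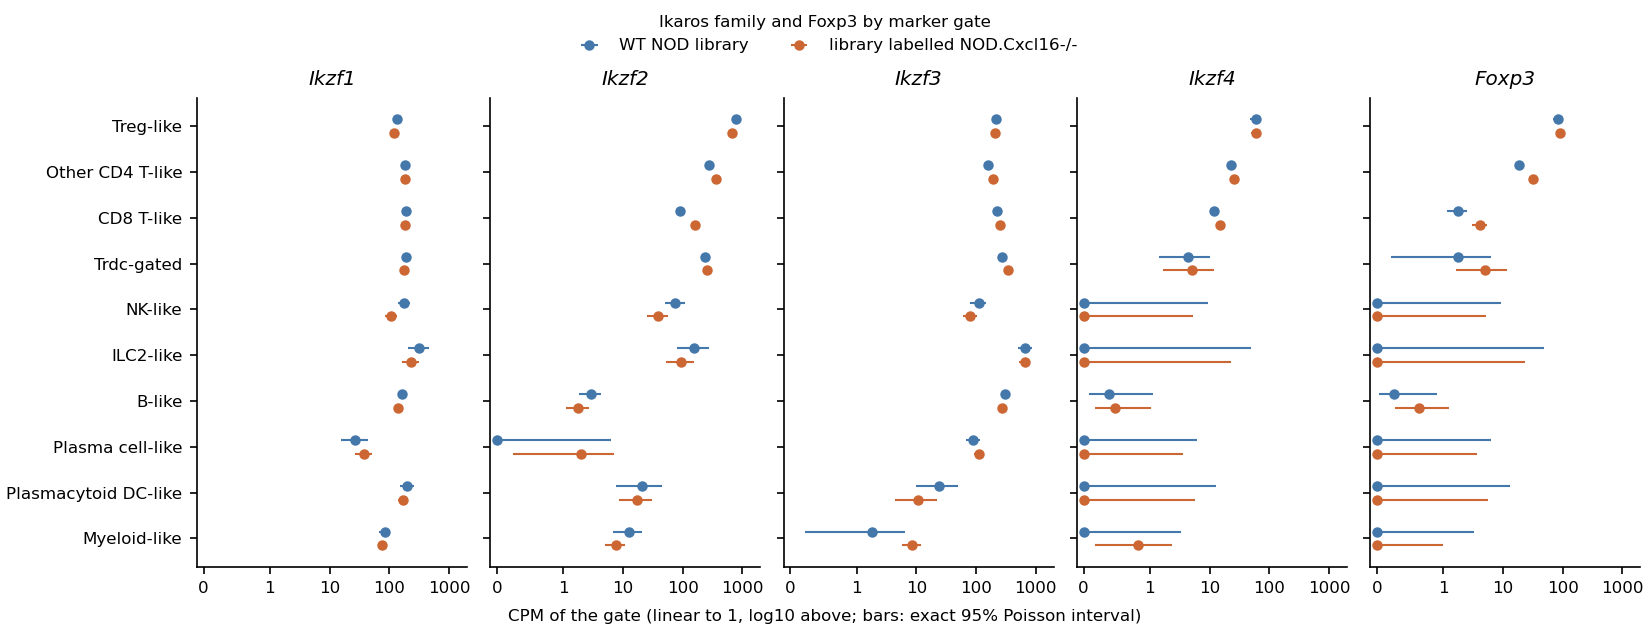
CPM of each member in the 10 marker gates (x axis linear up to 1 CPM and log10 above it), 1 point per library with its exact 95% Poisson interval. Ikzf2, Ikzf4 and Foxp3 are highest in Treg-like cells, whereas Ikzf1 and Ikzf3 are spread over B and T lineages.

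The value that led to the choice of these genes was Ikzf2 in CD8 T-like cells, which is given as a description. The WT NOD library had 1507 Ikzf2 UMIs and the library labelled NOD.Cxcl16-/- 2031, from fewer cells. The level was 1.78-fold higher in the latter (1.67 to 1.91), a log2 ratio of 0.83 with 1 CPM added (0.73 to 0.92). By this ratio Ikzf2 was number 25 from the top of the 7467 genes tested, those with a mean of at least 10 CPM and at least 20 UMIs in all. Of these genes 1.33% were higher by 1.5-fold or more and 0.576% were lower, and the 99 higher genes became 60 with doublets kept. Ikzf1, Ikzf2, Ikzf3 and Ikzf4 passed this filter, and Ikzf2 was the 1 member past 1.5-fold. The log2 ratio was -0.08 for Ikzf1, 0.15 for Ikzf3 and 0.33 for Ikzf4. Ikzf5, which encodes the more distant family member Pegasus, had 14.3 and 17.0 CPM. Foxp3 failed the filter and had 1.75 and 4.07 CPM from 29 and 51 UMIs, a log2 ratio of 0.88 (0.36 to 1.48).

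The other large gates were read in the same way, and differences between gates were not tested. In Treg-like cells 5.16% of the 7729 genes tested were higher by 1.5-fold or more and 5.64% were lower, and none of the 5 members was past that fold in either direction. Ikzf2 had a log2 ratio of -0.18 (-0.29 to -0.06) there, and Foxp3 one of 0.11 (-0.23 to 0.45). Without Treg-like cells with a Mki67 or Top2a UMI these became 0.04 for Ikzf2 and 0.55 for Foxp3, and in all CD4 T-like cells with a Foxp3 UMI Ikzf2 was at 0.02. In other CD4 T-like cells 1.33% of 7600 genes were higher by that fold and 0.763% were lower, and Foxp3 was the 1 member past it, at a log2 ratio of 0.75 (0.45 to 1.05). Ikzf2 had 0.39 (0.31 to 0.47) in the same gate. In B-like cells 4.24% of 7212 genes were higher and 1.44% lower. Of the members, Ikzf1 and Ikzf3 passed the filter there, and neither was past 1.5-fold, at -0.26 and -0.15.

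**Figure D2:**
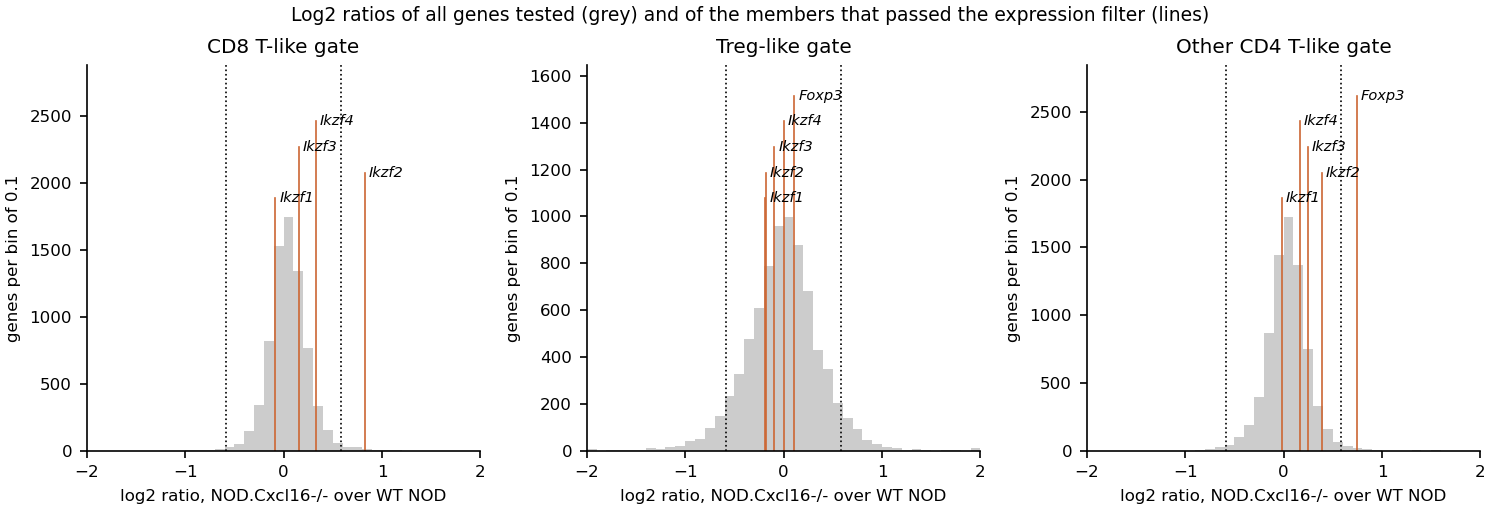
Log2 ratio between the libraries, NOD.Cxcl16-/- label over WT NOD (1 CPM added), for all genes tested in 3 T-cell gates, as genes per bin of 0.1, with the members that passed the filter as lines and 1.5-fold as dotted lines. Ikzf2 lies past the dotted line in CD8 T-like cells, Foxp3 in other CD4 T-like cells, and no member in Treg-like cells.

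The gap in Ikzf2 was present in each of 3 states of the CD8 T-like cells. Cells were assigned in turn to a cycling state (Mki67 or Top2a UMI), a state with Entpd1 or Havcr2, which mark chronically stimulated cells, and a state with Xcl1 or Cd160. Cycling cells were 27.9% of the gate in both libraries and had 91.6 and 160 CPM of Ikzf2. The Entpd1 or Havcr2 state had 79.9 and 136 CPM. The Xcl1 or Cd160 state was the highest of the 3 in both libraries, at 125 and 229 CPM. The log2 ratio was 0.80 (0.66 to 0.93) in cycling cells, 0.76 (0.44 to 1.10) in the Entpd1 or Havcr2 state and 0.87 (0.68 to 1.06) in the Xcl1 or Cd160 state, with intervals that overlapped.

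Depth differed between the libraries, with 18.9% and 5.07% of CD8 T-like cells under 2000 UMIs, and was therefore examined by bins. Cells of under 2000 UMIs had 104 and 209 CPM of Ikzf2, cells of 2000 to under 5000 UMIs had 70.4 and 183 CPM, and cells of 5000 to under 10000 UMIs had 79.2 and 155 CPM. The deepest cells, with 10000 UMIs or more, had 106 and 160 CPM. Ikzf2 was higher in the library labelled NOD.Cxcl16-/- in all 4 bins, and the log2 ratio ran from 0.59 in the deepest cells to 1.37 in those of 2000 to under 5000 UMIs.

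**Figure D3:**
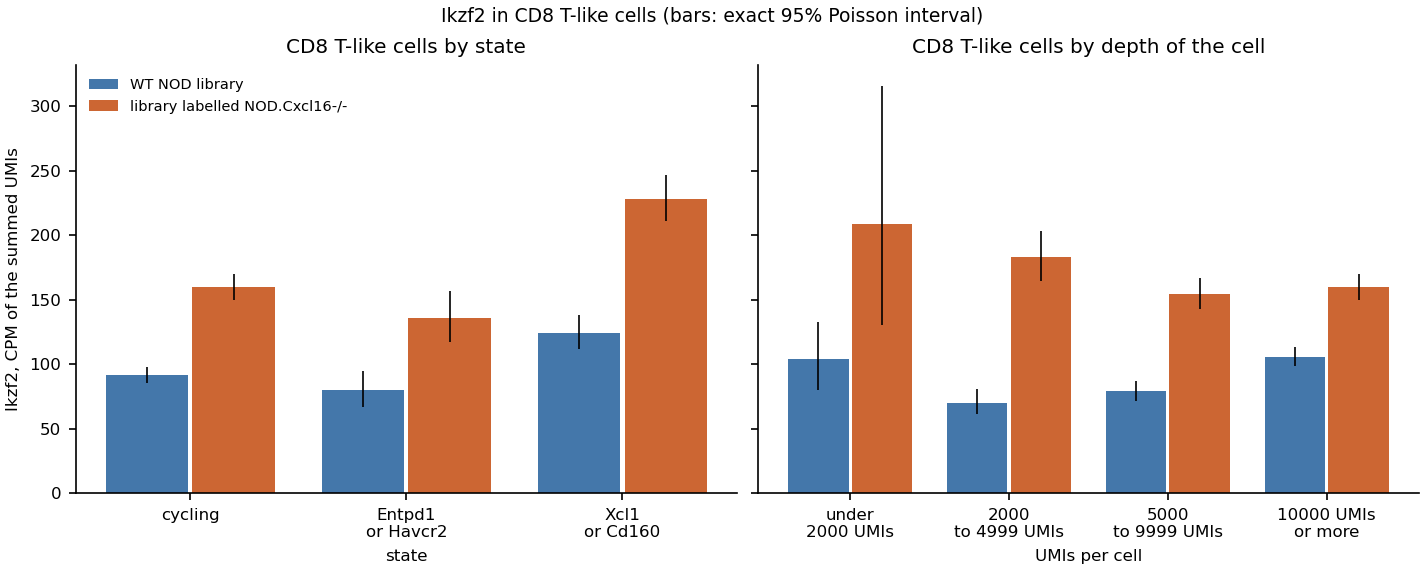
Ikzf2 as CPM of the summed UMIs of CD8 T-like cells by state and by UMIs per cell, 1 bar per library with its exact 95% Poisson interval. The library labelled NOD.Cxcl16-/- is the higher in all 3 states and all 4 depth bins shown.

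A larger share of CD8 T-like cells had an Ikzf2 UMI in the library labelled NOD.Cxcl16-/-, and a larger share had 3 or more. The cells with an Ikzf2 UMI as sequenced numbered 534 of 2439 and 507 of 1518. At the depths as sequenced, with medians of 4830 and 5665 UMIs, 21.9% and 33.4% of the cells had an Ikzf2 UMI. At 2000 UMIs per cell, leaving out 460 and 77 shallower cells, the expected shares were 11.6% (10.2 to 13.1) and 18.9% (16.9 to 20.99). The difference was 7.28 percentage points (4.84 to 9.77). In cells without a UMI of Foxp3, Il2ra or Ctla4 the expected shares were 6.73% (4.81 to 9.20) and 10.2% (6.90 to 14.2), which differed by 3.46 points. B-like cells, at medians of 4487 and 4638 UMIs, had an Ikzf2 UMI in 0.965% and 1.11% of cells as sequenced and in 0.523% and 0.460% at 2000 UMIs. Cells with 3 or more Ikzf2 UMIs at 2000 UMIs made up 1.22% and 3.68% of the CD8 T-like gate. In Treg-like cells the same class made up 30.5% and 28.2%, with intervals that overlapped. The highest count in a CD8 T-like cell as sequenced was 34 and 28 UMIs.

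**Figure D4:**
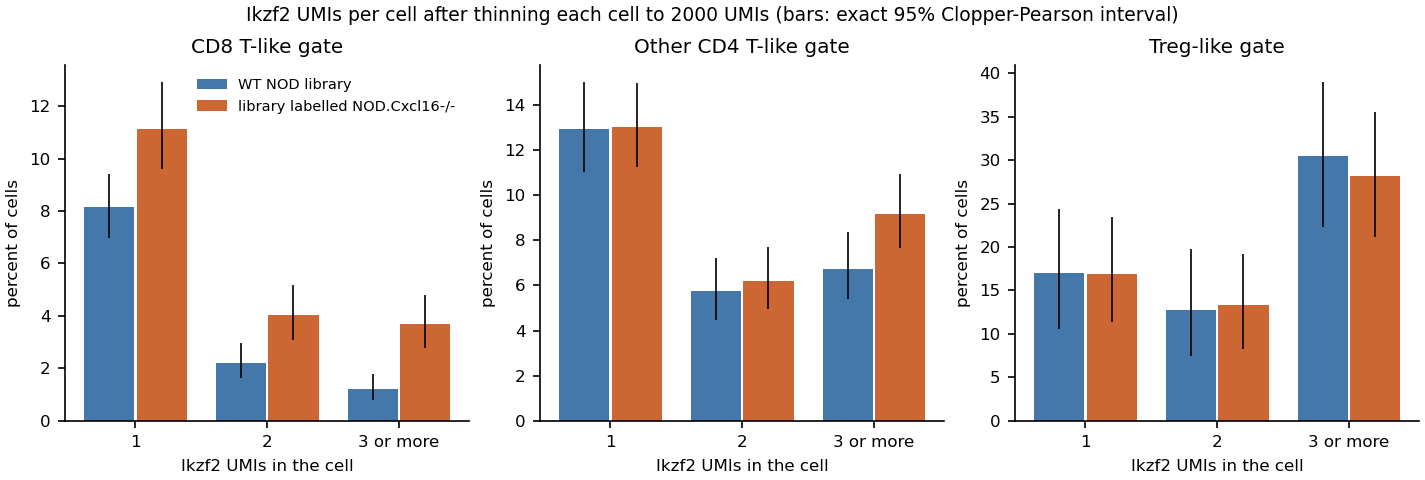
Percent of cells with 1, 2 and 3 or more Ikzf2 UMIs expected at 2000 UMIs per cell in 3 T-cell gates, 1 bar per library with its exact 95% Clopper-Pearson interval and a separate y axis for each gate. In CD8 T-like cells every class is larger in the library labelled NOD.Cxcl16-/-, whereas in Treg-like cells the bars of both libraries have overlapping intervals.

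Foxp3 in the CD8 T-like gate was measured to size the part of Ikzf2 that Treg transcripts could carry. Foxp3 UMIs were found in 23 of 2439 and 29 of 1518 CD8 T-like cells, 0.943% and 1.91% as sequenced and 0.283% and 0.724% at 2000 UMIs. B-like cells, which lack Foxp3, had shares of 0.129% and 0.422% as sequenced, and 2 and 8 UMIs in all. Foxp3 in CD8 T-like cells was 6.92-fold (1.75 to 59.9) and 6.35-fold (2.99 to 15.5) the level of B-like cells, where the WT NOD level of 0.253 CPM was below its floor of 0.380 CPM. Relative to CD8 T-like cells, Treg-like cells had 47.6-fold and 22.1-fold more Foxp3.

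Ikzf2 was then read in CD8 T-like cells with and without Foxp3. Of Treg-like cells themselves, 37.8% and 48.8% had a Foxp3 UMI as sequenced, so cells without one can still be Tregs. Their part in the values below was not tested. The Treg-like gate can also hold CD4 T cells that are not Tregs, and their part was not tested either. The ratio of Ikzf2 to Foxp3 UMIs used below is therefore that of the gate. CD8 T-like cells with a Foxp3 UMI had 442 and 519 CPM of Ikzf2 and held 5.57% and 8.32% of the gate's Ikzf2 UMIs. The 2416 and 1489 cells without one had 87.0 and 153 CPM, a log2 ratio of 0.81 (0.71 to 0.91). Treg-like cells had 9.26 and 7.57 Ikzf2 UMIs for each Foxp3 UMI, whereas CD8 T-like cells had 52.0 and 39.8. At the Treg-like ratio, the Foxp3 UMIs of the CD8 T-like gate would come with 269 and 386 Ikzf2 UMIs, 17.8% and 19.0% of those counted. The remainder was 74.8 and 131 CPM, a log2 ratio of 0.80. In cells with no UMI of Foxp3, Il2ra or Ctla4, 822 and 325 in number, Ikzf2 stood at 47.6 and 85.6 CPM, a log2 ratio of 0.83 (0.50 to 1.17), while the share of these cells with an Ikzf2 UMI differed by the 3.46 points given above.

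Markers of other cells in the CD8 T-like gate were listed beside this difference. The 10 Treg markers without members summed to 705 and 908 CPM, all 10 present, the 8 NK markers to 323 and 331 CPM and the 11 myeloid markers to 362 and 482 CPM. Endocrine markers (Ins1, Ins2 and 4 others) summed to 44.0 and 132 CPM. The part of the myeloid and endocrine sums in the Ikzf2 difference was not tested. Cells with UMIs of both Cd8a and Cd8b1 had 89.6 and 152 CPM of Ikzf2, and cells with Cd8a alone 95.4 and 210 CPM. Cells with a UMI of Tyrobp, Fcer1g or a Ly49 (Klra) gene had 123 and 167 CPM, and cells without one 83.9 and 161 CPM. The Ikzf2 gap was present in all of these subsets and was smaller in the Tyrobp, Fcer1g or Klra cells, at a log2 ratio of 0.43 (0.23 to 0.64) against 0.93 (0.82 to 1.04).

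**Figure D5:**
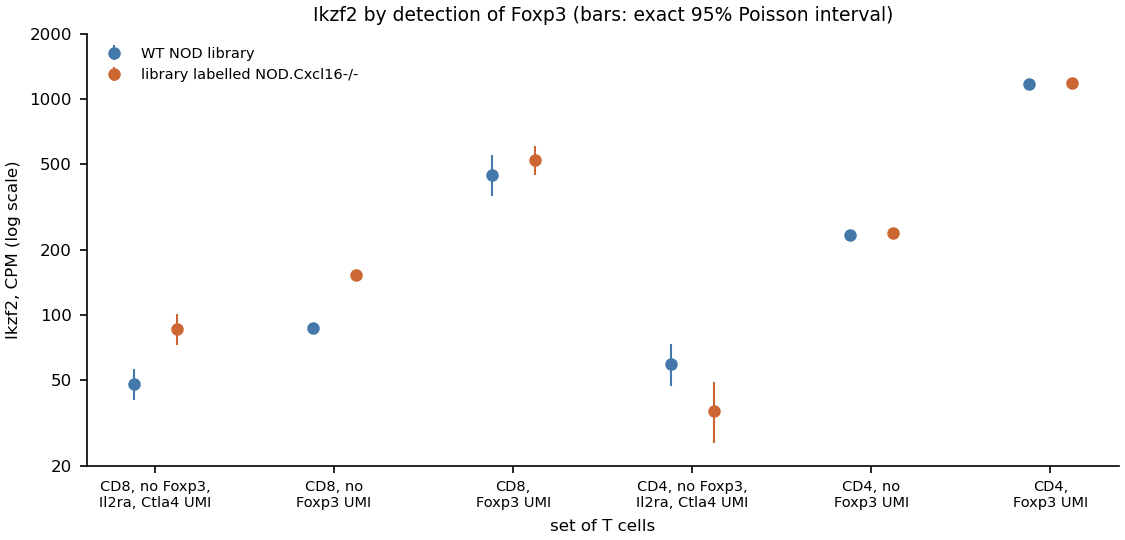
Ikzf2 in CPM (log scale) in CD8 and CD4 T-like cells split by detection of Foxp3, Il2ra and Ctla4, 1 point per library with its exact 95% Poisson interval. The libraries stand apart in CD8 T-like cells without Foxp3 (87.0 and 153 CPM) and lie together in CD4 T-like cells with Foxp3 (1171 and 1187 CPM) and without it (234 and 240 CPM). The CD4 sets pool the Treg-like and other CD4 T-like gates, whose Ikzf2 log2 ratios differed in sign (-0.18 and 0.39).

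Among CD4 T-like cells, Treg-like cells included, the libraries differed in how many cells had Foxp3, while the pooled Ikzf2 level of those cells was nearly equal. Foxp3 UMIs were found in 9.24% (7.76 to 10.9) of 1386 cells and in 14.6% (12.8 to 16.5) of 1486 cells. At 2000 UMIs per cell the expected shares were 4.71% and 7.29%. CD4 T-like cells with a Foxp3 UMI had 1171 and 1187 CPM of Ikzf2, a log2 ratio of 0.02, and those without one had 234 and 240 CPM, a log2 ratio of 0.03. Over all CD4 T-like cells Ikzf2 stood at 355 and 428 CPM (0.27) and Foxp3 at 29.0 and 44.1 CPM (0.59). Ikzf4 in CD4 T-like cells with a Foxp3 UMI was 78.7 and 76.5 CPM, and without one 21.2 and 21.8 CPM. Helios and Eos transcripts were thus both several times higher in Foxp3-bearing CD4 T-like cells, at nearly the same pooled level in both libraries. The pooled level does not hold within each gate. It sums the Treg-like gate, with an Ikzf2 log2 ratio of -0.18, and the other CD4 T-like gate, with one of 0.39. In Treg-like cells taken alone, the Ikzf2 of Foxp3-bearing cells was lower in the library labelled NOD.Cxcl16-/-, as given below.

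Within CD4 T-like cells, the subset without a UMI of Foxp3, Il2ra or Ctla4 went the other way, with 58.9 and 35.7 CPM of Ikzf2 from 79 and 40 UMIs. Treg-like cells without a Foxp3 UMI had 449 and 259 CPM, a log2 ratio of -0.79 (-1.01 to -0.57), and Treg-like cells with one had 1365 and 1152 CPM. Between 48 and 83 cells lay behind each of these 4 values. Cycling cells were 39.4% and 45.1% of the Treg-like gate, and without them the log2 ratio of the gate was 0.04 for Ikzf2 and 0.55 for Foxp3. Endocrine markers in the Treg-like gate summed to 32.6 and 379 CPM, and their part in these values was not tested. In cycling cells of the other CD4 T-like gate Foxp3 stood at 12.5 and 30.2 CPM and Ikzf2 at 300 and 424 CPM.

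Helios and Foxp3 were found together in single cells. At 2000 UMIs per cell, an Ikzf2 UMI was expected in 75.3% and 82.2% of other CD4 T-like cells with Foxp3 and in 23.7% and 25.3% of those without it. In Treg-like cells the shares were 90.1% and 87.7% against 53.8% and 50.5%. In CD8 T-like cells they were 42.7% and 51.2% against 11.5% and 18.6%, with only 5.61 and 10.4 expected cells with Foxp3. Ikzf3 went with Ikzf2 as well in other CD4 T-like cells, where 38.5% and 42.4% of cells with Ikzf3 and 21.3% and 23.9% of those without it had Ikzf2. Ikzf1 showed no such pairing there, at 24.0% and 26.9% against 26.1% and 29.1%.

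The transcriptomes of CD8 T-like cells with and without Ikzf2 were compared within each library. Taken as sequenced, the 10 genes highest in WT NOD cells with an Ikzf2 UMI were Myb, Kif4, Cdc6, Rad51b, Orc1, Tbc1d4, Tnfrsf9, Hmmr, Tnfsf4 and Smyd2. Several of these are cell-cycle genes, and cells with an Ikzf2 UMI were deeper, at medians of 6628 against 4434 UMIs in the WT NOD library and 7447 against 5336 in the other. The comparison was therefore repeated in non-cycling cells with each cell weighted by its chance of keeping an Ikzf2 UMI at 2000 UMIs, a choice made after the first list had been seen. The 10 leading genes were then Areg, Serpinb1a, Tnfrsf4, Sh3rf1, Ift80, Nrn1, Igf1r, Socs5, St8sia1 and Myo1e, of 5310 compared. In the library labelled NOD.Cxcl16-/- 9 of the 10 had the same direction and 5 were past 1.5-fold. Over all 5310 genes 66.4% were higher in cells with Ikzf2 in that library and 3.11% were higher by 1.5-fold or more.

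Areg, which encodes the growth factor amphiregulin, was the leading gene, at 27.9 CPM in cells with Ikzf2 and 4.14 CPM in cells without it in the WT NOD library. In the other library it stood at 46.5 and 7.37 CPM. Tnfrsf4, which encodes the costimulatory receptor OX40, was 2.66-fold and 2.67-fold higher in cells with Ikzf2, and Nrn1, which encodes neuritin, 2.51-fold and 2.04-fold. Further genes were looked up after these values had been seen. Tnfrsf9, which encodes 4-1BB, was 2.28-fold and 2.43-fold higher, Xcl1, which encodes a chemokine for cross-presenting dendritic cells, 1.91-fold and 2.05-fold, and Il2ra, the IL-2 receptor alpha chain, 2.61-fold and 2.61-fold. Ikzf3 was 1.34-fold and 1.31-fold higher, Foxp3 4.47-fold (1.32 to 19.3) and 6.69-fold, and Cd8a 1.05-fold and 0.97-fold. Tnfsf8, which encodes the CD30 ligand, was 1.91-fold (1.41 to 2.56) in the WT NOD library and 0.86-fold (0.65 to 1.10) in the other. Nrp1 was at 1.10-fold and 1.27-fold and Itgae at 1.19-fold and 1.19-fold, with intervals that held 1 in both libraries. In both libraries, then, Tnfrsf4, Tnfrsf9 and Il2ra were higher in CD8 T-like cells with Ikzf2, while Cd8a differed by less than its counting interval.

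States of CD8 T-like cells with Ikzf2 were compared as well, with only Ikzf2 read at 2000 UMIs and the state markers read at full depth. At 2000 UMIs per cell the Xcl1 or Cd160 state held 27.2% of CD8 T-like cells with Ikzf2 and 20.7% of those without it in the WT NOD library, and 35.0% and 25.1% in the other. The cycling state held 35.5% and 31.3% in the WT NOD library and 31.8% and 28.1% in the other. The shares of both states were thus higher among cells with Ikzf2 in both libraries, differences that were not tested. Non-cycling cells with Ikzf2 were still deeper, at means of 6131 against 5565 UMIs in the WT NOD library. In the other library the means were 6591 and 6182 UMIs, and the part of depth in these shares was not tested.

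Genes linked to the members by function were read as lists, beside a median log2 ratio of 0.04 over all genes tested in CD8 T-like cells. Of all genes tested there, 1.33% were higher by 1.5-fold or more and 0.576% were lower. Of 15 NuRD and co-repressor genes that passed the filter, none was past 1.5-fold and the median was 0.00, with Chd4, the remodelling ATPase of NuRD, at 157 and 157 CPM. Of 13 Foxp3 partners none was past it and the median was 0.21, with Runx1 at 130 and 150 CPM. Of 13 Treg signature genes, 4 were higher and none was lower, with a median of 0.35. The 4 were Capg (46.6 and 82.8 CPM), an actin-capping protein, Nrp1 (16.1 and 34.1 CPM), the coreceptor neuropilin, Itgae (14.4 and 22.7 CPM), the integrin CD103, and Nt5e (9.72 and 17.2 CPM), the ectoenzyme CD73. Of 11 innate-like and Ly49 genes, Xcl1 (526 and 794 CPM) and Itgae were higher, with a median of 0.14. The others were within 1.5-fold and went both ways. Klrd1, Klrk1, Klrc1 and Klrc2 were at log2 ratios of -0.46, -0.35, -0.30 and -0.26. Tyrobp, Cd160, Fcer1g and Il2rb were at 0.54, 0.40, 0.37 and 0.14. Klra1 was at -0.01, and the other Ly49 (Klra) genes of the list failed the filter. Of 15 activation and exhaustion genes, Ccl3 (59.0 and 37.6 CPM), a chemokine, was lower, with a median of 0.17.

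In Treg-like cells the same lists were read beside a median of 0.01 over all genes tested. Of all genes tested there, 5.16% were higher by 1.5-fold or more and 5.64% were lower. Of 16 Treg signature genes none was higher and 3 were lower, Il10 (94.0 and 58.9 CPM), an anti-inflammatory cytokine, Itgae (70.5 and 45.5 CPM) and the kinase gene Ikbke (26.5 and 13.4 CPM), with a median of -0.26. Of 7 innate-like genes Tyrobp (55.4 and 97.2 CPM), a signalling adaptor of NK and myeloid cells, was higher and Itgae lower. Of 15 activation and exhaustion genes, the chemokines Ccl3 (5.31 and 23.2 CPM, 7 and 52 UMIs) and Ccl4 (70.5 and 122 CPM) were higher and the HMG-box factor Tox2 (47.8 and 31.2 CPM) lower. Myeloid markers in this gate summed to 754 and 1154 CPM, and their part was not tested. None of 15 NuRD genes and none of 13 Foxp3 partners was past the fold, with medians of 0.00 and -0.21. In other CD4 T-like cells 1.33% of all genes tested were higher by that fold and 0.763% were lower, with a median of 0.04. None of 14 Treg signature genes, 13 Foxp3 partners and 15 NuRD genes was past the fold there. Of 7 innate-like genes there, Klrd1 (18.3 and 30.2 CPM), Fcer1g (21.6 and 36.1 CPM) and Xcl1 (37.96 and 70.6 CPM) were higher. Of 15 activation genes, Ccl4 (182 and 101 CPM) was lower. The lists were chosen with results of these libraries known.

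The genes whose levels were most like each member were taken over 10 gates and 2 libraries, 20 points that share libraries and differ in depth, so the correlations are descriptions. Ikzf1 was nearest to Rab11b (r = 0.96), Ncor1 and Syf2, and Ikzf2 to S100a13 (0.95), Utrn and Stk39. Ikzf3 was nearest to Gimap1 (0.94), 1300002E11Rik and Traf3ip2. Ikzf4 was nearest to Izumo1r (0.98), which encodes folate receptor 4, Cd6 and 1700019D03Rik. Foxp3 was nearest to Ncmap (0.98), followed by Ikzf4 (0.95) and Lrrc32 (0.95), which encodes a Treg surface protein that holds latent TGF-beta.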

How the data were processed

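The values deposited by the authors are raw UMI counts, whole numbers for each gene in each barcode. The authors made them with Cell Ranger 7.0.1 and the build mm10, per the submitters' processing notes, and the annotation and the counting of introns are not given in the sources used here. Cells needed at least 500 detected genes (1582 and 311 barcodes failed) and at most 10% mitochondrial UMIs (53 and 84 failed). Doublets were simulated, 2 for each barcode, scored by Scrublet's scheme and removed at 0.8% per 1000 barcodes (1537 and 891). Depth was 93553185 and 98681133 UMIs.

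Cells were gated on fixed marker genes, excluding the members, and UMIs were summed per gate and library as CPM. Intervals are exact Poisson for CPM, exact conditional for ratios and exact Clopper-Pearson for shares, at the 95% level, and cover counting error only. Log2 ratios divide the NOD.Cxcl16-/- library by the WT NOD library, with 1 CPM added. Genes were tested against a 1.5-fold threshold where they had a mean of at least 10 CPM and 20 UMIs in all. Shares at 2000 UMIs are the expected values over all draws of 2000 UMIs per cell, with intervals from the expected number of cells rounded to a whole number. They replaced a single random draw after that draw had been seen to give a larger difference for Ikzf2 in CD8 T-like cells (10.4% and 19.9%).

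The members, gates, gene lists and alternatives were chosen with earlier results of these data known. The depth bins, the Cd8b1, Il2ra and Nrn1 subsets, the split of CD4 T-like cells by Foxp3, the weighted comparison of cells with Ikzf2 and the cells outside the gates were added after values had been seen. Genes were named by a rule: the 5 members and Ikzf5, the 3 genes most like each member (11590 genes of 10 CPM or more in a gate), the 10 genes highest in cells with an Ikzf2 UMI (20 CPM and 20 UMIs or more), and list genes past 1.5-fold or among the highest. One further state of CD8 T-like cells and one marker list are not reported here. Coordinates and coding sequences are from GENCODE M21. Python 3.11.15, numpy 2.4.6, scipy 1.17.1 and pandas 2.3.3 were used, and interval and ratio code was tested on simulated data.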

Additional observations from a re-analysis of the deposited data

Results flagged for a closer look

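The log2 ratio of Ikzf2 between the libraries differed in sign between 2 gates, at 0.83 in CD8 T-like cells and -0.18 in Treg-like cells. The Treg-like value became 0.038 without cells with a Mki67 or Top2a UMI and 0.019 in all CD4 T-like cells with a Foxp3 UMI. Other CD4 T-like cells had 0.39 and Trdc-gated cells 0.07. Treg-like cells were not the only gate below 0. NK-like cells had -0.95 (-1.73 to -0.17) from 30 and 27 UMIs, where 14.9% of 5987 genes tested were lower by 1.5-fold or more. ILC2-like cells had -0.74 (-1.92 to 0.47) and myeloid-like cells -0.65 (-1.47 to 0.30). With 1 library per group, the difference between the gates was not tested.

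A signal of both genes lay in cells that no gate took, with Cd3 UMIs and neither a Cd4 nor a Cd8 UMI (2341 and 1757 cells, medians of 3052 and 3807 UMIs). Ikzf2 stood there at 290 CPM in the WT NOD library and 316 CPM in the other, and Foxp3 at 28.4 and 37.2 CPM. These levels are near those of all CD4 T-like cells (355 and 428 CPM, 29.0 and 44.1 CPM), and the type of these cells was not determined.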

How the results depend on the processing

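Of 64 values of the 6 main results under alternatives, 55 stayed within the counting interval, or within 1.5 times for a count, 9 moved and 2 changed sign, both of Ikzf2 in Treg-like cells. Ikzf2 in CD8 T-like cells (log2 ratio 0.83) became 0.96 as the mean of per-cell CPM, 0.93 without cells with a Tyrobp, Fcer1g or Klra UMI and 0.72 in cells of at least 5000 UMIs. Its share difference of 7.28 points became 3.46 in cells without a UMI of Foxp3, Il2ra or Ctla4. A single random draw of 2000 UMIs gave 9.56 points. In Treg-like cells Ikzf2 (-0.18) became 0.038 without cells with a Mki67 or Top2a UMI and 0.019 in all CD4 T-like cells with a Foxp3 UMI. Foxp3 (0.11) became 0.55 without the cycling cells and 0.59 in all CD4 T-like cells. The number of genes at least 1.5-fold higher in CD8 T-like cells fell from 99 to 60 with doublets kept. The causes were not tested. Of 242 values of 27 other results, 229 stayed and 15 changed sign, 9 of these within the interval. The 1 value past 1.5-fold that changed sign was Ikzf2 in ILC2-like cells, -0.74 from 12 and 15 UMIs and 0.0031 with doublets kept. Ikzf2 in other CD4 T-like cells (0.39) became -0.71 in cells without a UMI of Foxp3, Il2ra or Ctla4. Foxp3 in CD8 T-like cells rests on 29 and 51 UMIs. The 5000-UMI, Foxp3, CD4 and single-draw alternatives were added after the data were seen. No replicate could be left out. No paired analysis was possible because each group has 1 library.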

Other observations

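Cells with UMIs of Cd3, Cd4 and Cd8 together were outside the gates, 155 WT NOD cells and 139 of the other library. They had 218 and 382 CPM of Ikzf2 and 21.3 and 48.5 CPM of Foxp3, the widest gap in Ikzf2 among the 4 sets of cells that no gate took. Cells with Cd3 UMIs beside B-cell or myeloid gating genes, 1759 and 1120 in number, had 70.0 and 103 CPM of Ikzf2, and cells without a Cd3 UMI had 21.3 and 13.9 CPM. Median depth in the Cd3, Cd4 and Cd8 cells was 7229 and 9808 UMIs, and whether they were pairs of cells was not tested.

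Nrn1, which encodes neuritin, was detected in 198 and 217 CD8 T-like cells. Those cells had 156 and 218 CPM of Ikzf2, and CD8 T-like cells without an Nrn1 UMI had 81.5 and 147 CPM, so Ikzf2 was higher in the library labelled NOD.Cxcl16-/- on both sides of this split.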
